A study of Rattus norvegicus with 2 samples.

Results

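The cytosolic ribosomal protein genes of the rat adrenal medulla were compared between recurrent and acute hypoglycemia. Members were the genes whose symbol begins with Rpl or Rps and a digit, together with Rplp0, Rplp1, Rplp2 and Rpsa, read from probe sets that name a single gene. The rule found 43 genes of the 14217 measured, 29 of the large subunit and 14 of the small subunit. Rplp1 and Rplp2 were not among them. It left out 14 genes with similar symbols, which are 7 ribosomal S6 kinases, 5 ribosomal protein-like copies and 2 pseudogenes. Where a gene had several probe sets, the one of highest mean level stood for it, and 38 members had 1 probe set.

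Adult male Sprague-Dawley rats of 2 groups, 2RH30 and 2RS30, gave the tissue, the left adrenal medulla. The 2RH30 rats had been injected intraperitoneally with human insulin at 2 IU/kg, 2 times a day over 3 days, with a single morning injection on the last of these days, and the 2RS30 rats had been given saline on the same schedule. Both groups then underwent a hyperinsulinemic-hypoglycemic clamp on day 4, with glucose held at 40 to 50 mg/dL, per the labels, and were sampled at 30 min of the clamp target. A pool of RNA from 6 rats stood for each group and was read on a single Affymetrix rat expression array. No difference therefore has a replicate check, no p-value is given, and how far single animals vary cannot be seen. Arrays of other time points were not analysed here. All differences are the deposited log2 value of 2RH30 minus that of 2RS30, so that 1 is a 2-fold difference, the threshold of the study.

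A ribosome reads mRNA on its small subunit and joins amino acids on its large subunit. Each subunit is ribosomal RNA with a fixed set of proteins, and cells tend to make these proteins in matched amounts. Their mRNAs are abundant in most cells and begin with a pyrimidine tract, the 5′ terminal oligopyrimidine (TOP) motif, through which the kinase mTORC1 and the RNA-binding protein Larp1 control how much of them is translated. Chromaffin cells of the adrenal medulla make and release epinephrine together with large amounts of secretory granule protein. An array of RNA reads the amount of these mRNAs and not their translation.

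Most ribosomal protein genes read higher in 2RH30 than in 2RS30, most of them by less than 2-fold. As deposited, 39 of the 43 members were higher, and Rpl30, Rps13, Rps24 and Rpl35a, 4 in all, were lower. The median difference was 0.62 over the members and 0.11 over all genes. Quartiles of the members were 0.32 and 0.88, and the extremes were -0.23 and 1.73. Members at 2-fold or more higher numbered 7, which is 16.3% of the 43, against 11.5% of all genes, and 0 members were 2-fold or more lower, against 9.62% of all genes. The 7 were Rpl5, Rps15, Rps3, Rpl6, Rpl22, Rpl3 and Rpl12.

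Other genes of similar signal also tended to read higher in 2RH30. The difference between these arrays changed with level, and its median over probe sets was -0.38 in the dimmest of 20 level bins and 0.49 in the brightest. At the levels of the members the trend, taken by lowess, had a median of 0.50. After it was subtracted (level-adjusted differences), the median was 0.22 over the members, with 29 above 0 and 14 below, and 0.02 over all genes. Of all genes, 56.1% were above 0 as deposited and 51.2% level-adjusted. Level-adjusted, 3 members were 2-fold or more higher, against 8.95% of all genes, and 0 were lower, against 9.31%.

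**Figure D1:**
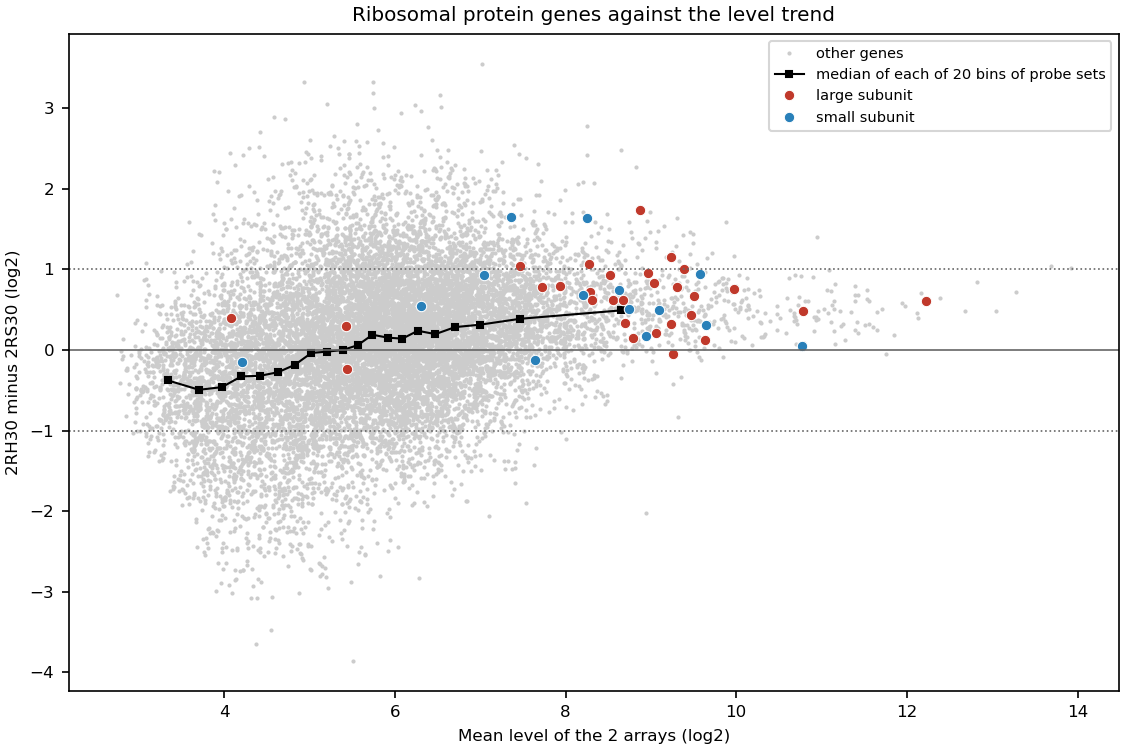
Each point is a gene, with its difference, 2RH30 minus 2RS30, on the vertical axis and its mean level on the horizontal axis (both log2). The plot has the large subunit in red, the small subunit in blue, other genes in grey and the medians of 20 bins of probe sets as black squares, with dotted lines at 2-fold. Most members lie at the bright end, where the bin median is 0.49, and Rpl5, Rps3 and Rps15 stand highest among them.

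Genes of similar signal gave the closest comparison. Mean levels of 8 or more were found for 32 members and for 779 other genes. The median difference was 0.62 in these members and 0.50 in the other bright genes, and level-adjusted it was 0.13 and -0.01. A value above 0 was found for 31 of the 32 members (96.9%) and for 90.4% of the other bright genes, and level-adjusted for 20 members (62.5%) and for 48.8% of the others. Of the 32 members 5 (15.6%) were 2-fold or more higher, against 12.3% of the other bright genes, and level-adjusted 2 (6.25%) were, against 2.7%. None of the 32 was 2-fold or more lower, against 0.257% of the other bright genes as deposited and 1.67% level-adjusted. The SD between genes of the deposited difference was 0.41 in the 32 members, 0.47 in the other bright genes and 0.83 over all 14217 genes. Most of the deposited difference of the members was thus also found in other genes of their level, and the medians were 0.12 apart as deposited and 0.14 apart level-adjusted.

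Added controls read lower in 2RH30, and endogenous control probe sets read higher. The hybridization control bioB, a bacterial transcript added in a fixed amount, averaged 9.86 on the 2RH30 array and 13.12 on the 2RS30 array. Its difference was -3.25, and those of the brighter added controls bioC, bioD and cre were -2.63, -1.49 and -0.41. Among endogenous controls, the probe set for 5S ribosomal RNA, a component of the large subunit, read 12.33 in 2RH30 and 11.68 in 2RS30, a difference of 0.65. The GAPDH controls differed by 0.61 on average and the beta-actin controls by 0.30. These endogenous controls lie in the range of the members. The part of the differences in added controls in the values of the members was not tested.

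**Figure D2:**
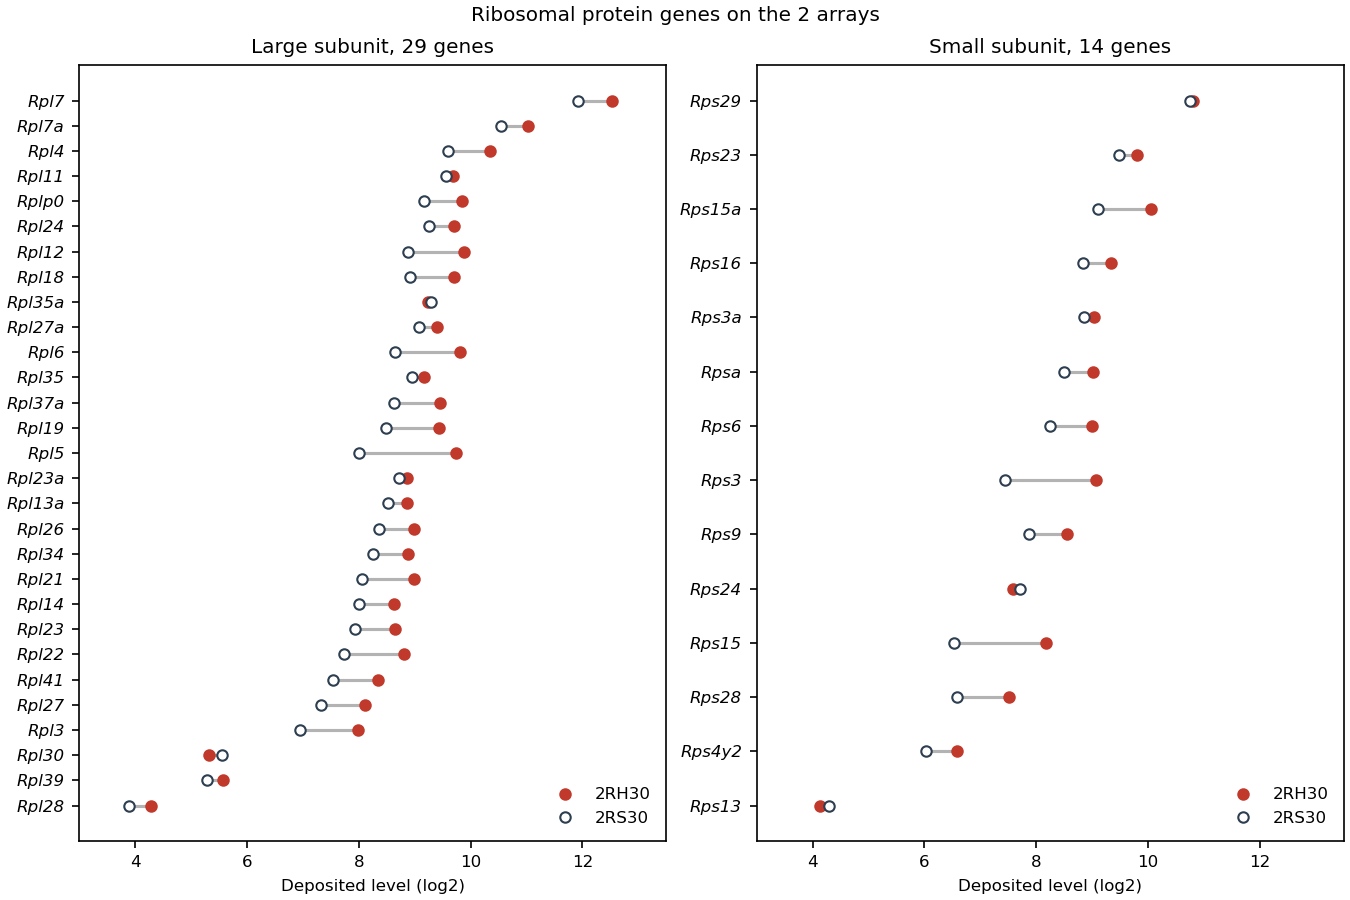
Deposited level (log2, horizontal axis) of each ribosomal protein gene (vertical axis) in 2RH30 (filled red) and in 2RS30 (open), for 29 genes of the large subunit and 14 genes of the small subunit. The filled point lies to the right of the open one for 39 genes. Levels of different genes depend on their probes and give no order of abundance.

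Both subunits showed nearly the same difference. The large subunit had a median of 0.62, with 27 of 29 genes higher and 5 at 2-fold or more, and the small subunit a median of 0.53, with 12 of 14 higher and 2 at 2-fold or more. Level-adjusted, the medians were 0.22 in the large subunit and 0.23 in the small subunit, with 20 of 29 and 9 of 14 genes above 0. The difference between the subunit medians, large minus small, was 0.09 as deposited and -0.0024 level-adjusted. The small subunit varied somewhat more between genes, with an SD of 0.56 against 0.41 in the large subunit as deposited. Levels of the members were similarly ordered on both arrays, with a Spearman correlation of 0.90 across the 43 genes, which share both libraries. The Spearman correlation of the difference with the mean level was -0.07 as deposited and -0.40 level-adjusted. The level-adjusted median was 0.35 in the 11 members under a mean level of 8, against 0.13 in the 32 brighter ones.

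The annotated transcript starts of the most and least different members are shown because a pyrimidine tract at the start is a feature that ribosomal protein genes are known to share and that the rule did not use. Windows from 45 bases before the start to 15 bases into the transcript were taken from RefSeq (GRCr8) for Rplp0 and, in each subunit, for the 2 highest and 2 lowest members with a sequence. Capitals mark the longest unbroken run of C or T within 15 bases either side of the start, and a run is counted only inside these bases, which shortens that of Rps3.
Rpl5: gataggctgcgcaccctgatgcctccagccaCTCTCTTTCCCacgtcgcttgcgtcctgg
Rpl6: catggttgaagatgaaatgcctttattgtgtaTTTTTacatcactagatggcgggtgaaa
Rpl11: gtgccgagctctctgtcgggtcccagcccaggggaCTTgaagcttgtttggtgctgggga
Rpl35a: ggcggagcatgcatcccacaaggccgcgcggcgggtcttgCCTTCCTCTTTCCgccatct
Rps15: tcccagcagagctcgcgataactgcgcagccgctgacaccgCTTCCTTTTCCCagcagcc
Rps3: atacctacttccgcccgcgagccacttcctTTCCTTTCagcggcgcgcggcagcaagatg
Rps24: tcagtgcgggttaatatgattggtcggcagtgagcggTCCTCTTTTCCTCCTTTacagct
Rps13: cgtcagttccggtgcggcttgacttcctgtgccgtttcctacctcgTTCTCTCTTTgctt
Rplp0: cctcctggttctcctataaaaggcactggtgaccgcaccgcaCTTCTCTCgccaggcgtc
On the minus strand lie Rpl5 (chr14:1995211-1995270), Rpl6 (chr12:41011676-41011735), Rpl11 (chr5:153560788-153560847), Rpl35a (chr11:81235007-81235066), Rps15 (chr7:10068101-10068160), Rps3 (chr1:163195762-163195821), Rps13 (chr1:180009646-180009705) and Rplp0 (chr12:46718376-46718435). Rps24 (chr16:96472-96531) lies on the plus strand.

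Long runs were found on both sides of the ranking. Rps15, among the highest, had a run of 12 bases across its annotated start, and Rps24 and Rpl35a, among the lowest, had runs of 17 and 13 bases. In Rpl5 the run of 11 bases ended 4 bases before the annotated start, and Rpl6 and Rpl11 had runs of only 5 and 3 bases, in windows set by the annotated start alone. Of the 36 members with a sequence, 23 (63.9%) held a run of 8 or more C or T bases on the coding strand, against 11.4% of all 27457 promoter windows. The median difference was 0.62 in the 23 members with such a run and 0.62 in the 13 without.

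Short promoter motifs were also counted in the full windows of 300 bases, from 250 bases before the start to 50 bases after it, on both strands. The GC box GGGCGG was present in 24 of 36 members (66.7%) and in 34.9% of all promoters. The ETS core CGGAAG, which can overlap a GC box by its first 3 bases, was present in 17 members (47.2%) and in 17.4% of all promoters. The YY1 core AAGATGGC was found in 4 members (11.1%) and in 3.44% of all promoters, the TATA box TATAAA in 5 (13.9%) and in 14.3%, and the CCAAT box in 7 (19.4%) and in 37.7%. The promoters of the members thus held more GC boxes and ETS cores and fewer CCAAT boxes than promoters in general, as a description of sequence and not of factor binding.

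In the large subunit, Rpl5 had the highest difference. Rpl5 binds the 5S ribosomal RNA together with Rpl11, and the complex is also known to restrain the ubiquitin ligase Mdm2. It read 9.74 in 2RH30 and 8.01 in 2RS30, a difference of 1.73 or 3.32-fold (level-adjusted 1.22). Its partner Rpl11 read 9.69 in 2RH30 and 9.57 in 2RS30, a difference of 0.12 (level-adjusted -0.41). The proteins of this complex are used in equal number, and their mRNAs were at the upper and the lower end of the subunit. Rpl5 and Rpl11 have 1 probe set each, so neither value has a second reading on the arrays.

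The next highest genes of the large subunit were Rpl6, Rpl22, Rpl3 and Rpl12. Rpl6 read 9.81 in 2RH30 and 8.66 in 2RS30, a difference of 1.15 (level-adjusted 0.63). Rpl22, an RNA-binding protein near the exit of the peptide tunnel, read 8.81 in 2RH30 and 7.74 in 2RS30, a difference of 1.06 (level-adjusted 0.59). Rpl3, which reaches close to the peptidyl transferase center, read 7.99 in 2RH30 and 6.95 in 2RS30, a difference of 1.04 (level-adjusted 0.65). The level-adjusted differences of these 3 genes were just beyond 0.56, the SD between probe sets of 1 gene at mean levels of 7 or more (335 genes), a technical spread that holds no variation between animals. Rpl12 was within it. Rpl12, at the base of the stalk, read 9.89 in 2RH30 and 8.88 in 2RS30, a difference of 1.01 (level-adjusted 0.49). The stalk recruits elongation factors, and Rplp0 anchors its P1 and P2 proteins. Rplp0 read 9.84 in 2RH30 and 9.17 in 2RS30, a difference of 0.67 (level-adjusted 0.14), close to the median of the members.

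At the lower end of the large subunit stood Rpl30, Rpl35a, Rpl11, Rpl23a and Rpl35. Rpl35a read 9.23 in 2RH30 and 9.28 in 2RS30, a difference of -0.05 (level-adjusted -0.57). It was the member farthest below the level trend. Rpl23a and Rpl35, neighbours at the exit of the peptide tunnel where the signal recognition particle docks, read 8.87 and 9.16 in 2RH30, against 8.71 and 8.96 in 2RS30. Their differences were 0.15 and 0.21 (level-adjusted -0.35 and -0.31). Rpl30 read 5.32 in 2RH30 and 5.55 in 2RS30, a difference of -0.23 (level-adjusted -0.28). The 19 genes between the highest 5 and the lowest 5 of the large subunit had differences of 0.29 to 0.95.

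Proteins that line the peptide tunnel or its exit are a part of the large subunit and were also read as a list. Of 9 listed genes 7 were measured, all 7 read higher in 2RH30, and 1 of them (14.3%), Rpl22, was 2-fold or more higher. Above 0 were 56.1% of all genes and 90.4% of the other genes at mean levels of 8 or more. At 2-fold or more higher were 11.5% and 12.3%. Rpl4, which extends into the tunnel wall, read 10.36 in 2RH30 and 9.596 in 2RS30, a difference of 0.76 (level-adjusted 0.22). Rpl19 differed by 0.95 and Rpl26 by 0.62 (level-adjusted 0.44 and 0.12). The median of the tunnel genes was 0.62 as deposited and 0.22 level-adjusted. The large subunit, which contains them, has the same rounded medians, and the level-adjusted one is the value of Rpl4 in both. The tunnel genes were not compared with the rest of the subunit. The brightest probe sets of the subunit belonged to Rpl7, at 12.53 in 2RH30 and 11.92 in 2RS30, Rpl7a, at 11.03 in 2RH30 and 10.54 in 2RS30, and Rpl4.

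**Figure D3:**
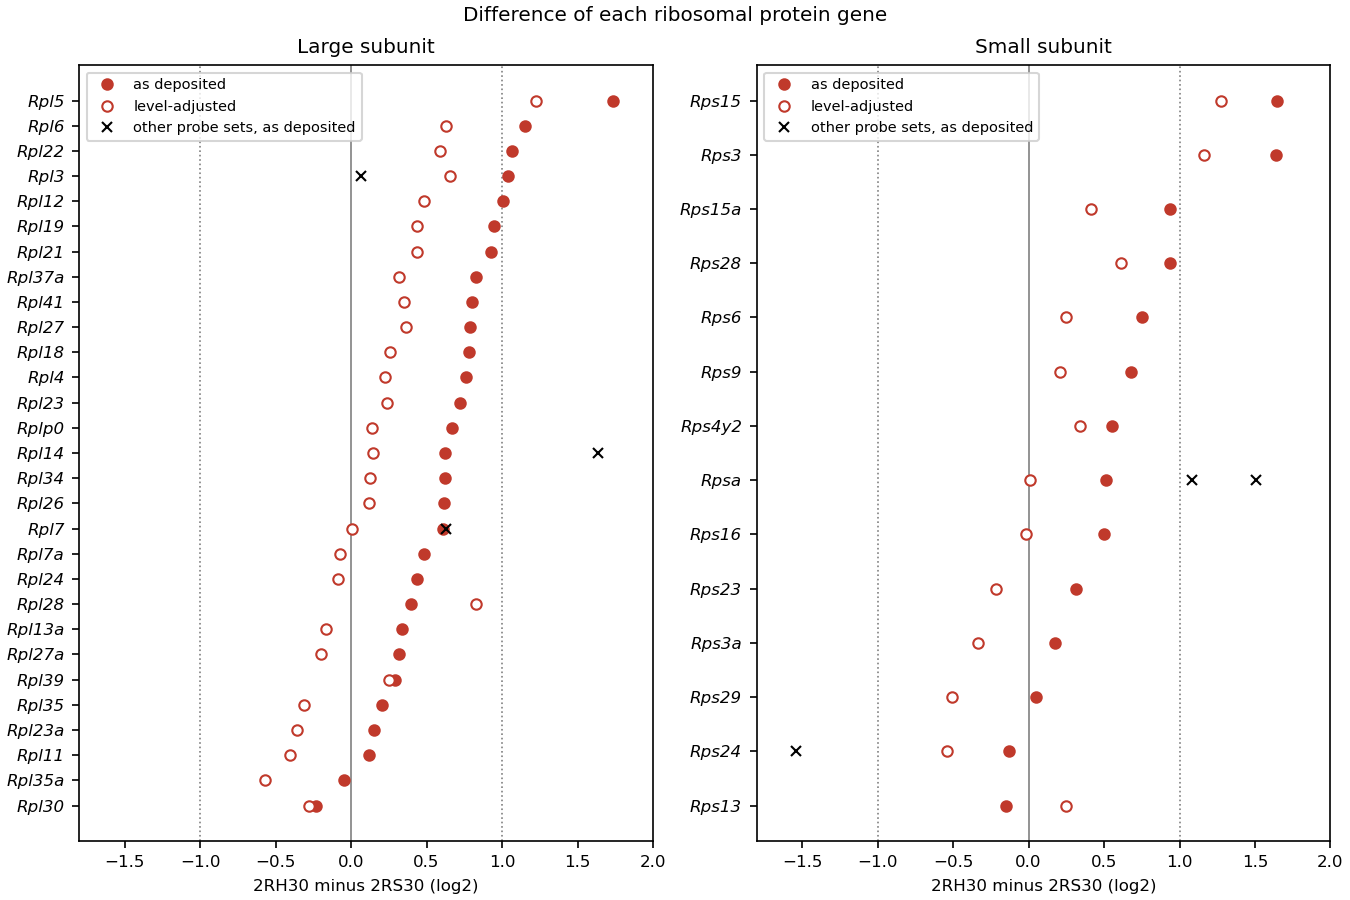
Genes of the large subunit (left) and small subunit (right) in order of their difference, 2RH30 minus 2RS30 (log2, horizontal axis). Filled points are the deposited values, open points the level-adjusted ones and crosses the deposited values of further probe sets, with dotted lines at 2-fold. The filled points of 39 genes and the open points of 29 genes are above 0.

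In the small subunit, Rps15 and Rps3 stood apart from the rest. Rps15, a protein of the head near the decoding site, read 8.18 in 2RH30 and 6.53 in 2RS30, a difference of 1.65 or 3.13-fold (level-adjusted 1.27). Rps3, which lines the entry of the mRNA channel and also acts in DNA repair, read 9.07 in 2RH30 and 7.44 in 2RS30, a difference of 1.64 or 3.11-fold (level-adjusted 1.16). Together with Rpl5 they were the 3 members that were still 2-fold or more higher after level adjustment. They too have 1 probe set each.

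Rps15a, Rps28 and Rps6 followed, all under 2-fold. Rps15a read 10.04 in 2RH30 and 9.11 in 2RS30, a difference of 0.94 (level-adjusted 0.41). Rps28, near the exit of the mRNA channel, read 7.51 in 2RH30 and 6.58 in 2RS30, a difference of 0.94 (level-adjusted 0.61). Rps6, the substrate of the S6 kinases downstream of mTORC1, read 9.003 in 2RH30 and 8.25 in 2RS30, a difference of 0.75 (level-adjusted 0.25). The phosphorylation of Rps6, by which mTORC1 activity is usually read, is not seen by an RNA array. Rpsa, also known as the laminin receptor, read 9.01 in 2RH30 and 8.49 in 2RS30, and Rps4y2, a copy of Rps4, read 6.58 in 2RH30 and 6.03 in 2RS30. With Rps9 and Rps16 they made up the middle of the subunit, at 0.50 to 0.68. Rps27a, made as a fusion with ubiquitin, had no probe set that names it alone.

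The lower end of the small subunit was formed by Rps13, Rps24, Rps29, Rps3a and Rps23. Rps29 had the brightest probe set of the subunit and read 10.80 in 2RH30 and 10.75 in 2RS30, a difference of 0.05 (level-adjusted -0.51). Rps3a read 9.03 in 2RH30 and 8.86 in 2RS30, a difference of 0.18 (level-adjusted -0.34). Rps23, at the decoding center, read 9.80 in 2RH30 and 9.48 in 2RS30, a difference of 0.32 (level-adjusted -0.21). All 3 were bright and lay below the level trend. Rps24 read 7.58 in 2RH30 and 7.71 in 2RS30, a difference of -0.13 (level-adjusted -0.54).

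A few members were dim, and their values say little about the gene. Rps13 read 4.14 in 2RH30 and 4.28 in 2RS30, and Rpl28 read 4.29 in 2RH30 and 3.89 in 2RS30, in both cases under the median of each array (5.514 in 2RH30 and 5.502 in 2RS30). Rpl30 and Rpl39 lay near that median, with Rpl39 at 5.57 in 2RH30 and 5.28 in 2RS30. Level adjustment turned the sign of Rps13, to 0.25, and moved Rpl28 to 0.83, the highest level-adjusted value after Rps15, Rpl5 and Rps3. The platform annotation also names Rpl28, Rpl30 or Rps13 on 4 other probe sets, together with copies or another gene. Those 4 were all higher in 2RH30, by 0.47 to 1.45. The 1.45, of a probe set for Rps13 and its copies, rests on a 2RS30 value of 5.55231 that recurs exactly for Rpl30.

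Probe sets of the same gene often disagreed in size. Among the 5 members with several probe sets, both of Rpl7 differed by nearly the same, 0.61 and 0.63. The brighter probe set of Rpl14 differed by 0.62 and the other by 1.63. Those of Rpl3 differed by 1.04 and 0.07, so the 2-fold call of Rpl3 holds for 1 of its 2 probe sets. The 3 probe sets of Rpsa were all higher in 2RH30, by 0.51, 1.51 and 1.08. The larger 2 differences rest on 2RS30 values, 6.52994 and 6.08539, that recur exactly for other genes, such as Mrps9 and Mrpl41. Those of Rps24 were both lower, by -0.13 in the brighter one and -1.54 in the other, which read 3.14 in 2RH30 and 4.68 in 2RS30 and was dim. Over these 5 genes the SD between probe sets was 0.56 (level-adjusted, 11 probe sets, some of them dim). Over all genes it was 0.56 for probe sets at mean levels of 7 or more and 0.81 for all probe sets that are not dim. Of the 43 level-adjusted differences, 34 lay within 0.56 of 0, 8 above that range and 1, that of Rpl35a, below it. The 8 include the dim Rpl28, whose level is far under those this SD was taken from. The share of all genes beyond 0.56 was not counted, so these counts cannot be read as a result about the members. The SD between genes of the level-adjusted difference was 0.45 in the members and 0.78 over all genes. Level-adjusted quartiles were -0.13 and 0.42 in the members, -0.27 and 0.27 in the other bright genes, and -0.45 and 0.48 over all genes.

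Probe sets that name a ribosomal protein gene together with other genes, mostly its copies, gave a second view that the rule did not use. Ribosomal protein genes have many processed copies in the genome, and 33 such probe sets were found. Their median level was 8.91 in 2RH30 and 8.31 in 2RS30. Of the 33, 32 (97.0%) were higher in 2RH30, 7 (21.2%) by 2-fold or more, and 0 were 2-fold or more lower. Of all genes, 56.1%, 11.5% and 9.62% were so, and of the other genes at mean levels of 8 or more, 90.4%, 12.3% and 0.257%. The median difference of the 33 was 0.74. Level-adjusted, 28 of 33 (84.8%) were above 0, against 51.2% of all genes and 48.8% of the other bright genes. At 2-fold or more higher were then 3 (9.09%), against 8.95% of all genes and 2.7% of the other bright genes. None was 2-fold or more lower level-adjusted, against 9.31% and 1.67%. The level-adjusted median of these probe sets was 0.21, next to 0.22 in the members. They come from the same arrays and are no replicate.

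The copies with symbols of their own had a lower median than the members as deposited, and nearly the same median level-adjusted. Rps27l, a p53 target in human cells, read 9.95 in 2RH30 and 9.39 in 2RS30, a difference of 0.56 (level-adjusted 0.03). Rpl3l, a form of Rpl3 of heart and skeletal muscle, differed by 0.27, Rpl7l1 by 0.23 and Rpl26l1 by 0.15. Rpl39l1, a copy outside the list, read 4.25 in 2RH30 and 4.88 in 2RS30 and was dim. With Rps4y2, which the rule counts as a member, 5 of 10 listed copies were measured, and the median of the 5 was 0.27 (level-adjusted 0.24). The deposited median is the value of the dim Rpl3l, and the level-adjusted one that of the dim Rpl26l1. None of these 5 differed by 2-fold.

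Genes that act on the ribosome were compared as lists. Of 11 elongation and termination factors, 1 was 2-fold or more higher (Eef2, which moves the ribosome along the mRNA, at 1.08, level-adjusted 0.58) and 0 were lower. That is 9.09% of the list, near the 11.5% of all genes. The sign of the list depended on the adjustment, with a median of 0.23 before it and -0.32 after it. Eef1a1, which delivers aminoacyl-tRNA, read 11.26 in 2RH30 and 11.02 in 2RS30, a difference of 0.23 (level-adjusted -0.34). Eef1b2, its exchange factor, was lowest at -0.44 (level-adjusted -0.90). Many of these mRNAs are TOP mRNAs too, and the difference between this list and the ribosomal protein genes was not tested.

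Other TOP mRNAs were closer to the ribosomal protein genes. Of 12 listed 7 were measured, and 6 (85.7%) were higher in 2RH30, against 56.1% of all genes and 90.4% of the other bright genes. The nascent chain factor Naca, 1 gene (14.3%), was 2-fold or more higher at 1.33 (level-adjusted 0.88), against 11.5% of all genes. The median of the 7 was 0.62 (level-adjusted 0.15). Rack1, which sits on the small subunit, read 9.35 in 2RH30 and 8.57 in 2RS30, a difference of 0.78 (level-adjusted 0.27). Eif3h, a subunit of an initiation factor, differed by 0.998 and Eif3f, of the same factor, by -0.30.

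Regulators of TOP mRNA translation and mTORC1 had a median of 0.14 over 20 of 22 listed genes (level-adjusted -0.15). Of the 20, 1 (5%) was 2-fold or more higher, against 11.5% of all genes, and 1 was lower, against 9.62%. Rptor, the scaffold of mTORC1, was 2-fold or more higher at 1.33 (level-adjusted 1.23), with 6.25 in 2RH30 and 4.92 in 2RS30. Its 2RS30 value lay under the median of that array, 5.502. Larp1, the repressor of TOP mRNAs, was 2-fold or more lower at -1.05 (level-adjusted -1.42), with 6.87 in 2RH30 and 7.92 in 2RS30. The other measured regulators were under 2-fold in either direction, among them Mtor at 0.33, Tsc2 at -0.25 and Eif4ebp1 at 0.12.

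Ribosome assembly genes were more scattered than the ribosomal proteins themselves. Of 66 measured biogenesis factors 14 (21.2%) were 2-fold or more higher, against 11.5% of all genes, and 4 were lower, against 9.62%, with a median of 0.51. Level-adjusted the median was 0.28, with 11 (16.7%) higher, against 8.95% of all genes, and 5 lower, against 9.31%. Ddx21, a nucleolar helicase, and Eif6, which keeps the free large subunit from joining, were highest among those above the median level, at 2.25 and 1.98 (level-adjusted 2.01 and 1.63). Rcl1 and Nop14, both of small subunit processing, were lowest among these at -1.06 and -1.05. The SD between genes was 0.88 in this list and 0.46 in the 43 members, at lower levels in the list, with a median of 6.49 in 2RH30 and 5.98 in 2RS30. For rRNA transcription 18 genes had a median of 0.36 (level-adjusted -0.04). Of these 2 (11.1%) were 2-fold or more higher as deposited, near the 11.5% of all genes, and 1 was lower, against 9.62%. The higher ones were Polr1c at 1.46 and Polr2e at 1.45, and the lower one was Polr1b, the second largest subunit of RNA polymerase I, at -1.26. Level-adjusted, 3 (16.7%) were higher, against 8.95% of all genes, and 1 was lower, against 9.31%. The gene added was Polr1f, at 1.09 level-adjusted, which was dim at 5.25 in 2RH30 and 4.35 in 2RS30.

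Mitochondrial ribosomal proteins and the proteasome core, other complexes of fixed composition, had medians of similar size. Of 73 mitochondrial ribosomal protein genes 17 (23.3%) were 2-fold or more higher, against 11.5% of all genes, and 1 was lower, against 9.62%. Level-adjusted, 13 (17.8%) were higher, against 8.95% of all genes, and 5 were lower, against 9.31%. The median was 0.44 (level-adjusted 0.34) and the SD between genes 0.81. The highest, Mrpl17, read 7.87 in 2RH30 and 5.39 in 2RS30. Of 13 measured genes of the proteasome core 3 (23.1%) were 2-fold or more higher, against 11.5% of all genes, and 0 lower, against 9.62%. Their median was 0.56 (level-adjusted 0.26). Level-adjusted medians above 0 were thus also found outside the cytosolic ribosome.

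**Figure D4:**
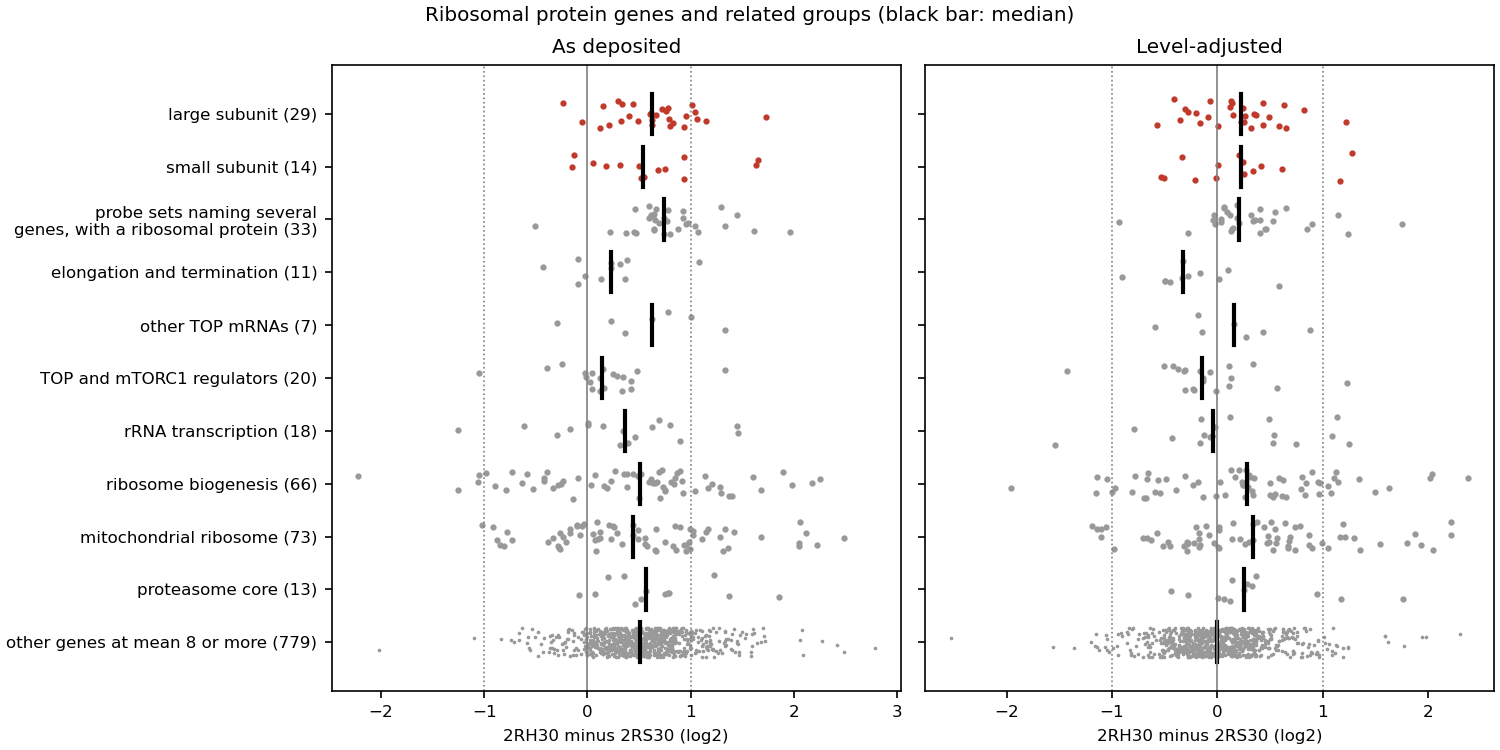
Genes of the ribosomal subunits (red) and of related lists (grey), each point being 2RH30 minus 2RS30 (log2, horizontal axis) as deposited (left) or level-adjusted (right), with the number of points in parentheses, the median as a black bar and dotted lines at 2-fold. Level-adjusted, the medians are 0.22 and 0.23 in the subunits, -0.32 in elongation and termination factors and 0.34 in the mitochondrial ribosome.

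The tissue label was checked with marker genes. Of 12 chromaffin cell genes 11 were measured, among them Th at 11.96 in 2RH30 and 11.45 in 2RS30 and Pnmt at 11.67 in 2RH30 and 11.35 in 2RS30. Their summed log2 level was 95.5 in 2RH30 and 90.3 in 2RS30, and the median difference was 0.44 (level-adjusted 0.09). Genes of the adrenal cortex were bright as well, with 7 of 10 measured at 9.06 to 12.51 in 2RH30 and 8.73 to 11.81 in 2RS30, a summed log2 level of 78.2 in 2RH30 and 74.1 in 2RS30 and a median difference of 0.60 (level-adjusted 0.03). Cortical transcripts were thus bright on both arrays, with a median level of 11.46 in 2RH30 and 10.98 in 2RS30. This was above the median of the chromaffin genes, 9.04 in 2RH30 and 8.22 in 2RS30, though levels of different genes depend on their probes. The sums cover different numbers of genes and cannot be compared between lists. The 9 macrophage genes summed to 57.9 in 2RH30 and 50.6 in 2RS30, with a median difference of 0.89 (level-adjusted 1.03). At 2-fold or more higher were 4 of the 9, and level-adjusted 5, against 11.5% and 8.95% of all genes, while Csf1r and Ptprc lay at -0.77 and -0.71. Median differences were 0.19 for 6 endothelial genes, 0.25 for 4 Schwann and sustentacular genes and 0.90 for 2 erythroid genes. The part of these cell types in the values of the ribosomal protein genes was not tested, and in pooled tissue more cells of a type and more RNA per cell cannot be told apart.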

How the data were processed

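Each probe set has 1 deposited log2 value on each array, a scale inferred from the range. Their submission notes name Affymetrix Expression Console, without a version. The methods describe the deposited data as quantile-normalized, although the SD over probe sets was 1.57 in 2RH30 and 1.28 in 2RS30. They name GCRMA in Partek for the study's own analysis, and whether the deposited values were made in this way is not stated. Of 31099 rows, 57 array controls were set aside. Of the other 31042 probe sets 20826 name 1 gene, 436 several and 9780 none in the platform annotation, with symbols updated by gene number through RefSeq (20758 matched; 2 members, Rpl37a and Rps9, kept the symbol of the platform).

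No test was possible with 1 array per group, a number that limits the precision of every value. For level-adjusted differences, lowess (fraction 0.3, 3 iterations) was fitted to the difference against the mean level of all probe sets and its value taken off. A check on simulated data used the trend fitted to these arrays and shifts of 2-fold or more in randomly picked probe sets. It does not cover shifts as small as the level-adjusted medians of the members. Dim probe sets lie under the median of both arrays. Some values recur exactly for several genes of an array, in 2RS30 for example 4.92223 (Rptor and Mrpl45) and 6.52994 (Mrps9 and Polr2f). The part of such repeated values in the differences was not tested. The members and lists were chosen with earlier results of these data known. Named genes were the 5 highest and 5 lowest of each subunit, the 3 brightest and 3 dimmest, every member at 2-fold, those with several probe sets, and up to 2 highest and 2 lowest of each list; further genes were picked for their role after their values were seen. Tools were statsmodels 0.14.6, scipy 1.17.1, pandas 2.3.3, numpy 2.4.6 and matplotlib 3.10.9 in Python 3.11.15.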

Additional observations from a re-analysis of the deposited data

How the results depend on the processing

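The alternatives were scaling, level adjustment, the choice of probe sets and the threshold. Against medians of 0.62 over all members, 0.62 in the large subunit and 0.53 in the small subunit, quantile normalization gave 0.19, 0.22 and 0.19, and the lowess adjustment gave 0.22, 0.22 and 0.23. A closer lowess with a fraction of 0.05, added after the data were seen, gave 0.22, 0.22 and 0.20. Each of these 3 removes the level trend by construction, and each left 3 members at 2-fold or more higher, against 7 as deposited. Thresholds of 1.5-fold and 3-fold gave 24 and 3 members higher. The shares of other genes at these 2 thresholds were not counted, so these numbers are no result about the members. The deposited differences of the other genes at mean levels of 8 or more had quartiles of 0.24 and 0.78. Without probe sets that can match several transcripts 1 member, Rps24, was 2-fold or more lower, at -1.54, because its dim probe set then stands for the gene. Centring, the mean over probe sets, leaving out low or multi-transcript probe sets and, added after the data were seen, leaving out the dim members gave medians of 0.61 to 0.67 over all members, 0.61 to 0.69 in the large subunit and 0.52 to 0.62 in the small subunit, with 6 to 8 members higher. Large minus small ranged from -0.0024 to 0.14. Of 296 values of single members under these alternatives, 286 moved by less than the SD between probe sets, 0.56, and 10 by more. Among members at 2-fold or more, 0 changed sign. Both counts say little, because this SD is larger than the median level trend at the members, 0.50. Several settings also leave most members as they were. Members under 2-fold did change sign, such as Rps16, at 0.50 as deposited and -0.06 with quantile normalization. Members above 0 fell from 39 as deposited to 29 level-adjusted. No paired analysis was possible because the design has a single array in each group, which also leaves no array to omit. The detection limit of dim probe sets is unknown.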

Other observations

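The S6 kinases, which share the Rps prefix but are not ribosomal proteins, were left out by the rule and varied widely. Rps6ka4 differed by 1.69 (level-adjusted 1.40), with 7.63 in 2RH30 and 5.94 in 2RS30, and Rps6kb1, which phosphorylates Rps6, by 0.42 (level-adjusted 0.11). Rps6ka3 and Rps6ka6 differed by -1.35 and -1.82 (level-adjusted -0.90 and -1.38), from dim values of 3.15 and 2.68 in 2RH30, against 4.50 and 4.50 in 2RS30. Probe sets that name the pseudogenes Rpl37-ps2 and Rps4x-ps1 were dim and differed by -0.26 and -0.75 (level-adjusted 0.03 and -0.44).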
